A study of Mus musculus with 43 samples.

Results

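The 10 genes described here, Neurog3, Nanos3, Lin28a, Sall4, Foxo1, Sohlh1, Sohlh2, Kit, Dmrt1 and Dmrtb1, are taken as genes of progenitor and differentiating spermatogonia. They were chosen by name, and each matched a single identifier among the 55401 of the RNA tables. The study asked what the arginine methyltransferase Prmt1 does in the male germ line of C57BL/6J mice. All RNA libraries came from postnatal day 7 (P7), when the germ cells of the testis are spermatogonia. The knockout (dKO) carried Ddx4-CreERT2, a tamoxifen-inducible Cre knocked into the germ cell gene Ddx4 together with a GFP tag, and floxed Prmt1 alleles, and tamoxifen was given on 3 consecutive days. Whole testis was sequenced from 3 WT and 3 dKO samples. GFP-positive spermatogonia sorted by flow cytometry were sequenced by the low-input Smart-seq2 method from 2 samples labelled WT and 2 labelled dKO. The sorted controls are named in the study's methods as heterozygous animals with the same Cre-GFP allele and 1 floxed allele, so they are called WT here only after their label. Chromatin was profiled by CUT&Tag, in which an antibody-tethered transposase cuts next to a modified histone, in 33 samples of P7 and P14 testis cells freed of interstitium, passed through a strainer meant to remove Sertoli cells, and not sorted. The P14 samples are titled as spermatogonia, while their cell type field says spermatocytes. The labels give replicate numbers but no animals, so the p-values measure the spread between these samples only.

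Spermatogonial stem cells rest on the basement membrane of the seminiferous tubule and feed a pool of transit-amplifying progenitors. Retinoic acid then turns the progenitors into differentiating spermatogonia, which begin to make the receptor Kit and divide several times before meiosis. Neurog3, Nanos3, Lin28a, Sall4 and Foxo1 are known from the undifferentiated side of that step, Sohlh1, Sohlh2 and Kit from the step itself, and Dmrt1 and Dmrtb1 from the control of entry into meiosis.

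The RNA libraries held between 12396317 and 18547078 expected counts. Replicates of whole testis were alike (Pearson r of log2 CPM between 0.965 and 0.990), while the sorted WT pair correlated at 0.788 only and the sorted dKO pair at 0.953. The sorted WT libraries also held counts for fewer genes, 17106 and 15587, than the sorted dKO libraries, 21404 and 20194, although their totals were higher (18547078 and 17787994 against 16969785 and 15610354). Prmt1, the targeted gene, was measured at 350 and 239 TPM (a level scaled to transcript length and library total) in the sorted WT samples and at 179 and 151 TPM in the sorted dKO samples. In whole testis it was at 652, 604 and 638 TPM in WT and at 410, 433 and 402 TPM in dKO. All dKO libraries were below all WT libraries in both assays, and because the floxed exons are only part of the gene, its total count checks the genotype in part. Germ cell markers summed to 2405 and 2519 TPM in the sorted WT samples, 1545 and 1595 in the sorted dKO samples, and between 528 and 744 in whole testis. The lower sum in sorted dKO came from Tex101 (1576 and 1591 TPM in WT, 651 and 628 in dKO), looked at after its values were seen. Without Tex101 the sums were 829 and 928 TPM in sorted WT and 894 and 968 in sorted dKO. Rnf17 was lower as well (167 and 194 TPM in WT, 107 and 116 in dKO). The other 5 of the 7 markers measured had a positive log2 fold change (median of the 7, 0.22). Sertoli markers summed to between 121 and 218 TPM in the sorted samples against between 1858 and 3317 in whole testis, and mast cell markers were at 0 in all 4 sorted samples.

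**Figure D1:**
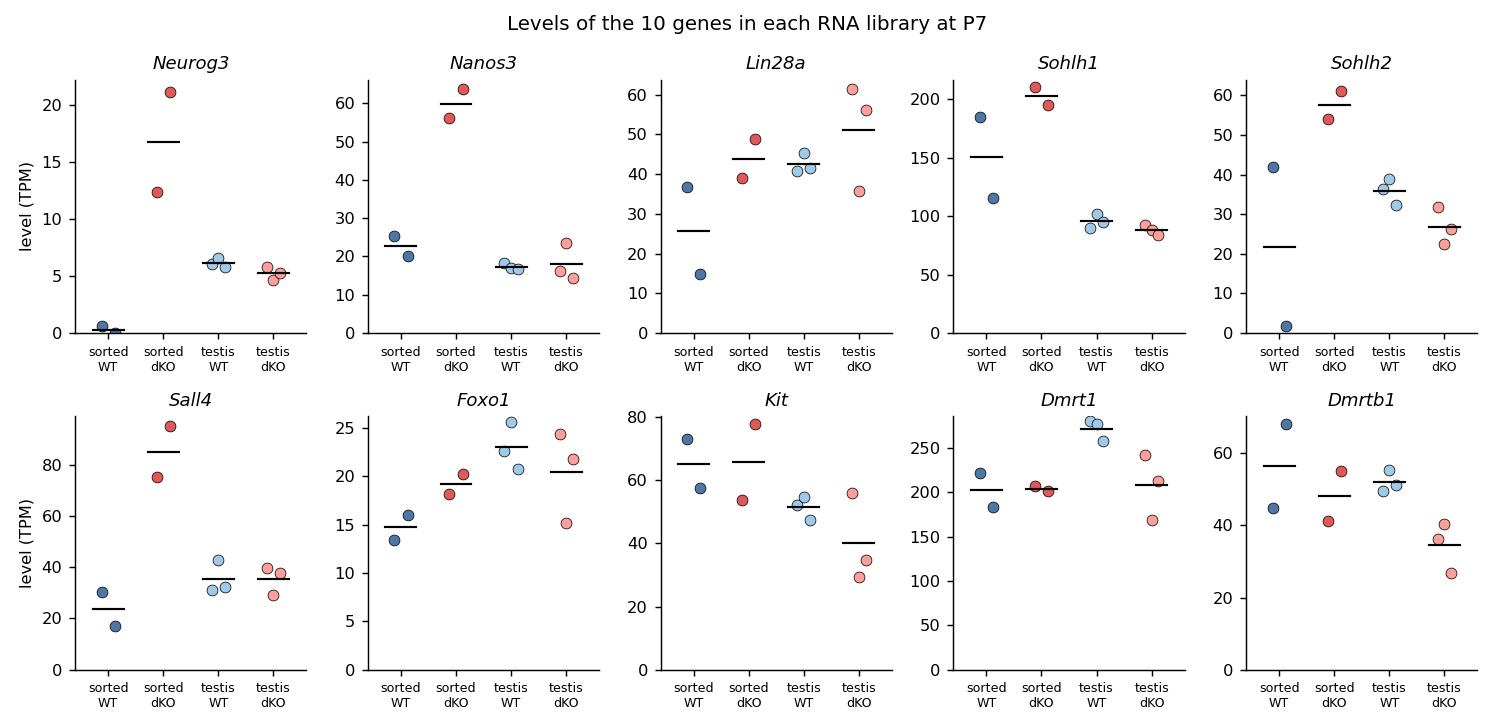
Level of each of the 10 genes in every RNA library at P7, in TPM, with each panel's axis starting at 0. Points are libraries and horizontal lines are group means. Neurog3, Nanos3, Sall4, Sohlh1 and Sohlh2 were higher in both sorted dKO libraries than in every other library. Sohlh2 was near 0 in 1 of the 2 sorted WT libraries.

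Summed over the 10 genes, the level was 584 ± 126 TPM in sorted WT and 803 ± 51.3 TPM in sorted dKO (SD, n = 2 each), and 631 ± 31.8 TPM in WT testis and 528 ± 74.7 TPM in dKO testis (SD, n = 3 each). Dmrt1 and Sohlh1 were the most abundant members in every group. In WT testis Dmrt1 was at between 258 and 280 TPM and Sohlh1 at between 89.7 and 102 TPM. Dmrtb1 (between 49.7 and 55.3 TPM), Kit (between 47.4 and 54.6 TPM) and Lin28a (between 40.8 and 45.4 TPM) followed, with overlapping ranges between Dmrtb1 and Kit. Sall4 (between 31.1 and 42.8 TPM) overlapped both Lin28a and Sohlh2 (between 32.4 and 38.9 TPM). Foxo1 (between 20.7 and 25.6 TPM) and Nanos3 (between 16.8 and 18.3 TPM) came next without overlap, and Neurog3 was the lowest at between 5.77 and 6.54 TPM. Set against WT testis, sorted WT samples held 1.57 ± 0.52 times the level of Sohlh1. The ratio was 1.31 ± 0.22 for Nanos3 and 1.27 ± 0.23 for Kit. The SD of each ratio combines the spread of the 2 sorted and the 3 testis samples. Dmrtb1 was at 1.09 times its testis level, and the other 6 members were below it, with Dmrt1 at 0.746 ± 0.104, Sall4 at 0.668 ± 0.290, Foxo1 at 0.641 ± 0.104, Sohlh2 at 0.607 ± 0.792, Lin28a at 0.606 ± 0.366 and Neurog3, the lowest, at 0.0474 ± 0.067 times. The assays differ in library preparation as well as in cells, and this comparison was not tested.

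The sorted spermatogonia address what the loss of Prmt1 did to the genes within the germ line. Neurog3, Nanos3 and Sall4 had both dKO libraries above both WT libraries, with log2 fold changes of 5.97, 1.75 and 1.46, while Kit and Dmrtb1 overlapped between genotypes. The edgeR quasi-likelihood test with Benjamini-Hochberg adjustment called 0 of 16443 genes (0%) at a false discovery rate (FDR) below 0.05 and a 2-fold change, the members included, and the smallest FDR was 0.0774. An unadjusted p below 0.05 at the same fold was reached by 2267 genes on the higher side and 678 on the lower side. With DESeq2, calls towards a higher level numbered 1238 of 16901 tested (7.33%) and towards a lower level 664 (3.93%). With limma-voom, 1546 calls (9.40%) were towards a higher level. Of the members, DESeq2 called Neurog3, Nanos3 and Sall4 higher and limma-voom called Sall4. On the edgeR scale of CPM (counts scaled to the library total by TMM factors), 8 of the 10 members had both dKO libraries above both WT libraries, against 36.3% of all genes tested, and none had both below, against 20.3%. The median log2 fold change was 0.85 over the members and 0.15 over all genes tested. Macrophage markers, at 0 TPM in both sorted WT samples, summed to 33.2 and 30.6 TPM in the sorted dKO samples, with Adgre1 and Cd163 at 0. The other somatic lists did not all move in the same direction, and of their sums only the endothelial one was higher in both sorted dKO samples. Sertoli marker sums overlapped (138 and 121 TPM in sorted WT, 134 and 218 in sorted dKO), with 6 of 8 log2 fold changes positive (median 0.56), among them Aard (1.62, edgeR FDR of 0.0891, DESeq2 adjusted p of 0.0135). Leydig marker sums overlapped too (6.97 and 0.120 TPM against 4.74 and 8.13 TPM). Of the 6 Leydig markers Cyp17a1, Cyp11a1 and Lhcgr were at 0 in all 4 sorted libraries, Star overlapped (158 and 7 counts against 130 and 120), and Hsd3b1 (25 and 72 counts) and Insl3 (5 and 8) were found in dKO only. Peritubular myoid sums were lower in dKO (7.95 and 4.61 TPM against 3.76 and 4.06 TPM). In that list Tagln was below WT (45 and 97 counts against 8 and 2) and Acta2 overlapped, while Des (25 and 23 counts) and Cnn1 (21 and 52) were at 0 in sorted WT. Endothelial markers summed to 0 TPM in both sorted WT samples and to 1.14 and 1.04 TPM in sorted dKO. The part of these markers, and of the smaller number of genes detected in the WT pair, in the differences was not tested.

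Neurog3 (ENSMUSG00000044312.4, chr10:62133090-62134763 of GRCm38, + strand) encodes a basic helix-loop-helix transcription factor that marks progenitors. It was measured at 0.58 and 0 TPM in sorted WT, from 12 and 0 counts, and at 12.4 and 21.2 TPM in sorted dKO, from 245 and 364 counts. The dKO samples lay far above both WT samples. As a ratio of CPM this was 56.6 (95% counting interval 32.2 to 110, which covers counting error only). The log2 fold change was 5.97 (SE 2.0), with an edgeR FDR of 0.167 and a DESeq2 adjusted p of 0.00131. Its size rests on 12 counts in 1 WT library. In whole testis Neurog3 was at 6.06, 6.54 and 5.77 TPM in WT and at 5.81, 4.61 and 5.3 TPM in dKO. Those 6 values lie above both sorted WT values and below both sorted dKO values, a comparison across assays that was not tested.

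Nanos3 (ENSMUSG00000056155.6, chr8:84173731-84185217, − strand) encodes an RNA-binding protein of undifferentiated germ cells. It was measured at 25.3 and 20.3 TPM in sorted WT and at 56.2 and 63.7 TPM in sorted dKO, with no overlap. The log2 fold change was 1.75 (SE 0.56, 95% interval 0.27 to 3.24), with an edgeR FDR of 0.152 and a DESeq2 adjusted p of 0.0102. In whole testis the groups overlapped, at 18.3, 17.0 and 16.8 TPM in WT and 16.2, 23.5 and 14.45 TPM in dKO.

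Sall4 (ENSMUSG00000027547.17, chr2:168748332-168767943, − strand), a zinc finger transcription factor needed for progenitors to differentiate, had the most even difference. Its counts were 1209 and 1262 in sorted WT and 2732 and 2687 in sorted dKO, or 30.3 and 17.1 TPM against 75.2 and 94.96 TPM. The WT pair differed in TPM and not in counts because the mean transcript length assigned to the gene was 2784 bases in 1 library and 5073 in the other. The log2 fold change was 1.46 (SE 0.16, 95% interval 1.04 to 1.88), the edgeR FDR was 0.0774, the DESeq2 adjusted p was 1.6e-09 and the limma-voom FDR was 0.0244. In whole testis Sall4 was at 31.1, 42.8 and 32.4 TPM in WT and at 39.6, 29.3 and 37.9 TPM in dKO, which overlapped.

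Lin28a (ENSMUSG00000050966.9, chr4:134003330-134018841, − strand) encodes an RNA-binding protein that blocks the maturation of let-7 microRNAs. It was at 36.7 and 14.8 TPM in sorted WT and at 38.9 and 48.9 TPM in sorted dKO. The groups did not overlap, but the gap to the nearer WT sample was smaller than the gap between the WT samples (log2 fold change 1.04, SE 0.41, edgeR FDR of 0.232, DESeq2 adjusted p of 0.125). Foxo1 (ENSMUSG00000044167.6, chr3:52268336-52353221, + strand), a forkhead transcription factor controlled by PI3K-AKT signalling, was at 13.4 and 16 TPM in sorted WT and at 18.1 and 20.2 TPM in sorted dKO. Its log2 fold change was 0.60 (SE 0.17, edgeR FDR of 0.120).

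Sohlh1 (ENSMUSG00000059625.6, chr2:25842995-25847248, − strand) and Sohlh2 (ENSMUSG00000027794.4, chr3:55182028-55209957, + strand) encode partner helix-loop-helix factors that drive spermatogonial differentiation. Sohlh1 was at 185 and 115 TPM in sorted WT and at 210 and 195 TPM in sorted dKO (log2 fold change 0.66, SE 0.28, edgeR FDR of 0.253). Sohlh2 was at 41.8 and 1.73 TPM in sorted WT, from 1396 and 57 counts, and at 53.9 and 61.0 TPM in sorted dKO. The distance between the WT samples thus exceeded that between genotypes, and the log2 fold change of 1.61 had a SE of 1.33 (edgeR FDR of 0.576). Each WT library was low in genes of its own. Replicate 2 had 29 counts of Zbtb16 against 1107 in replicate 1, 11 counts of Rarg against 446 and 0 counts of Upp1 against 383. Replicate 1 had 1 count of Pou5f1 against 162 in replicate 2, 22 counts of Id4 against 287 and 271 counts of Etv5 against 763. Without replicate 2 the log2 fold change of Sohlh2 fell to 0.69, and without WT replicate 1 it was 5.29.

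Kit (ENSMUSG00000005672.12, chr5:75574916-75656722, + strand), the receptor tyrosine kinase for stem cell factor, was at 73.0 and 57.4 TPM in sorted WT and at 53.6 and 77.7 TPM in sorted dKO. The dKO values enclosed the WT values, and the log2 fold change was 0.17 (SE 0.16, 95% interval −0.25 to 0.60, edgeR FDR of 0.633). Dmrt1 (ENSMUSG00000024837.15, chr19:25505618-25604329, + strand), a DM-domain factor that keeps spermatogonia out of meiosis and is also made by Sertoli cells, was at 222 and 184 TPM in sorted WT and at 207 and 202 TPM in sorted dKO. Its genotypes overlapped in TPM and separated only in CPM (log2 fold change 0.28, 95% interval −0.14 to 0.70, edgeR FDR of 0.390). Dmrtb1 (ENSMUSG00000028610.16, chr4:107676290-107684230, − strand), its relative that acts at the change from mitosis to meiosis, was at 44.8 and 68.2 TPM in sorted WT and at 41.4 and 55.2 TPM in sorted dKO. The samples of both genotypes were interleaved (log2 fold change 0.01, 95% interval −0.79 to 0.80, edgeR FDR of 0.994). For these 3 genes the intervals leave out a 2-fold change in either direction in sorted cells.

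**Figure D2:**
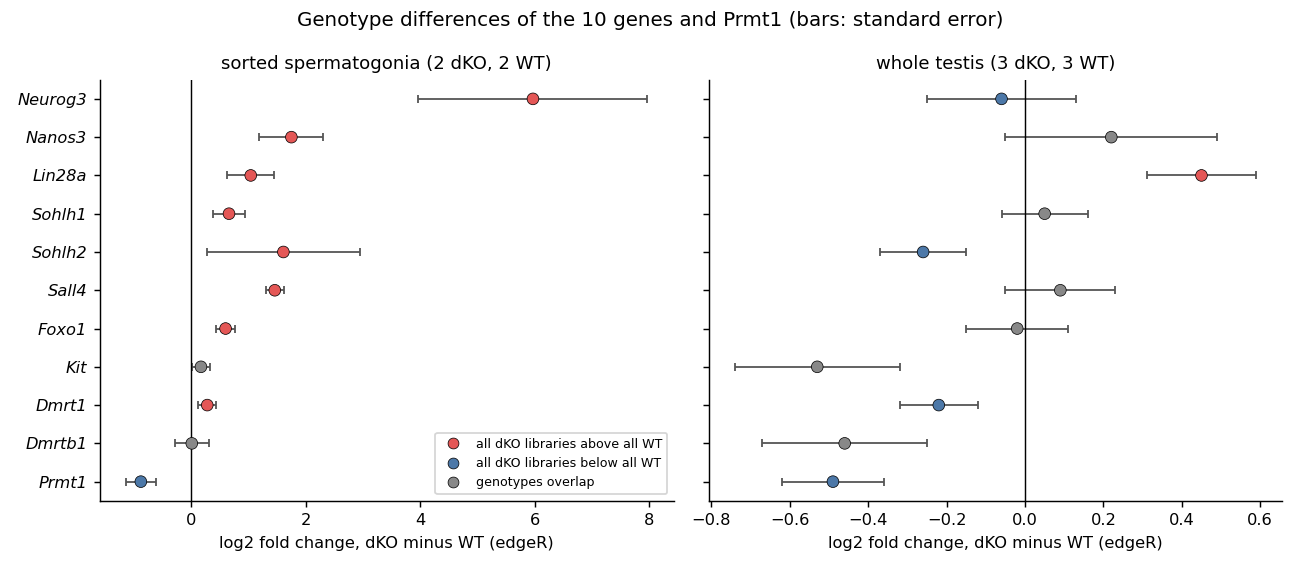
Log2 fold change of the 10 genes and Prmt1 between dKO and WT (edgeR), in sorted spermatogonia on the left and whole testis on the right, with bars for 1 standard error and axes of different range. Colours show whether all dKO libraries lay above or below all WT libraries. In sorted cells the 10 values lay between 0.01 and 5.97, in whole testis between −0.53 and 0.45.

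Whole testis addresses the same question in the tissue, where a lower level can come from fewer cells of a type or from less RNA per cell, and these cannot be told apart. The members moved little. With edgeR, 881 of 16554 genes (5.32%) were higher and 294 (1.78%) lower, and none of the 10 members was among them. The 3 dKO libraries exceeded the 3 WT libraries without overlap for 1 member, against 20.9% of genes tested, and lay under them for 3 members, against 19.9%. The median log2 fold change was −0.04 over the members and 0.02 over all genes. Lin28a was the member above, at 40.8, 45.4 and 41.4 TPM in WT and 61.4, 35.9 and 56.3 TPM in dKO. On the TMM-scaled CPM used in the test its groups were apart (84.9 ± 3.87 in WT, 116 ± 20.6 in dKO, SD, n = 3 each), whereas in TPM dKO replicate 2 was the lowest of the 6. The log2 fold change was 0.45 (SE 0.14, edgeR FDR of 0.0547, DESeq2 adjusted p of 0.0440).

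Sohlh2, Dmrt1 and Neurog3 were the members below, and of these Neurog3 was apart in CPM only (4.92 ± 0.04 in WT and 4.71 ± 0.08 in dKO, SD, n = 3 each), since its TPM given above overlapped. Sohlh2 was at 36.3, 38.9 and 32.4 TPM in WT testis and at 32.0, 22.4 and 26.3 TPM in dKO testis (log2 fold change −0.26, SE 0.11, edgeR FDR of 0.135). Dmrt1 was at 280, 277 and 258 TPM in WT and at 242, 169 and 213 TPM in dKO (log2 fold change −0.22, SE 0.10, edgeR FDR of 0.154). Sohlh2 and Dmrt1 were thus lower in each dKO testis by less than 2-fold and did not pass the test. The lowest fold changes were those of Kit and Dmrtb1, which overlapped in CPM, although Dmrtb1 did not in TPM. Kit was at 52.2, 54.6 and 47.4 TPM in WT and at 56.1, 29.2 and 34.8 TPM in dKO (log2 fold change −0.53, SE 0.21, edgeR FDR of 0.112), and Dmrtb1 at 49.7, 55.3 and 51.1 TPM in WT and at 36.3, 40.4 and 26.96 TPM in dKO (log2 fold change −0.46, SE 0.21, edgeR FDR of 0.154). Foxo1 was at between 20.7 and 25.6 TPM in WT and between 15.2 and 24.4 TPM in dKO, and Sohlh1 at between 83.6 and 92.6 TPM in dKO, overlapping WT. Somatic markers differed between the same testes, and not all in one direction. Peritubular markers summed to between 827 and 900 TPM in WT and between 290 and 507 TPM in dKO, with 3 of 5 called lower. Macrophage sums were higher in dKO (between 100 and 116 TPM, against between 80.9 and 91.2 TPM in WT), with 0 markers called. Endothelial sums overlapped. Leydig cell markers summed to between 624 and 724 TPM in WT and between 164 and 185 TPM in dKO. Of the 6, 4 were called lower, while Lhcgr went the other way (log2 fold change 0.69, edgeR FDR of 0.0223). Mast cell markers summed to between 9.38 and 13.5 TPM against between 1.91 and 3.07 TPM, with 3 of 3 called lower. Leydig and mast cells both make Kit. Sertoli markers, which stand for cells that make Dmrt1, summed to between 3103 and 3317 TPM in WT and between 1858 and 2317 TPM in dKO. Their part in the values of Kit and Dmrt1 was not tested. Ddx4, whose locus carries the Cre-GFP allele, had a log2 fold change of −0.67 (edgeR FDR of 0.0184). Of the 7 germ cell markers measured in testis, Ddx4 among them, 3 were positive and 4 negative (median −0.03), and none was called at 2-fold.

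The difference of the genotype effect between the assays was tested in a single edgeR fit over all 10 libraries. Of 19608 genes, 3722 (19.0%) passed an FDR of 0.05, and 3 members did so. The genotype difference was larger in sorted cells by 6.11 on the log2 scale for Neurog3 (SE 1.28, FDR of 0.0108), by 1.46 for Sall4 (SE 0.23, FDR of 0.00326) and by 0.59 for Dmrt1 (SE 0.17, FDR of 0.0407). For Dmrt1 the effects had opposite signs, 0.28 in sorted cells and −0.22 in testis. Foxo1 (0.71, FDR of 0.0522) and Nanos3 (1.62, FDR of 0.0546) did not pass, nor did the other 5 members (FDR between 0.130 and 0.382). When limma-voom gave each assay its own spread, Neurog3 passed (FDR of 0.0130), while Sall4 (FDR of 0.0602) and Dmrt1 (FDR of 0.167) did not. The term also holds the difference in library preparation and in the controls.

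The 18 other genes of the spermatogonial programme, among them the partners of the members, were listed by name with earlier results known. In sorted cells 14 of the 18 had a positive and 4 a negative fold change (median log2 0.55, against 0.15 over all genes tested). With edgeR 0 were called, while DESeq2 called 3 higher, namely Lin28b, Nanos2 and Ddit4, against 7.33% of all genes it tested. For 12 of the 18, both dKO libraries lay above both WT libraries in CPM, against 36.3% of all genes tested. On the lower side 3 had both dKO libraries below both WT libraries, against 20.3% of all genes tested. Each had a fitted difference of less than 2-fold, and they are named after their values were seen. Taf4b, a subunit of the germ cell form of TFIID, was at 57.1 and 61.3 TPM in sorted WT and 25.2 and 31.3 TPM in sorted dKO (log2 fold change −0.85, edgeR FDR of 0.0774, DESeq2 adjusted p of 1.10e-04, limma-voom FDR of 0.0455). Rhox13, a homeobox gene, had −0.89 (DESeq2 adjusted p of 0.0411) and the cyclin Ccnd1 −0.53 (DESeq2 adjusted p of 0.0945). Nanos2, a relative of Nanos3 that holds stem cells undifferentiated, had 2 and 0 counts in sorted WT and 103 and 159 in sorted dKO. As a ratio of CPM this was 146 (95% counting interval 40.0 to 1213). Lin28b, the homologue of Lin28a, was at 7.51 and 9.21 TPM in sorted WT and at 16.1 and 21.4 TPM in sorted dKO (log2 fold change 1.67, SE 0.37, DESeq2 adjusted p of 0.00217). Ddit4, a stress-induced inhibitor of mTORC1 signalling, had 198 and 56 counts in sorted WT and 539 and 485 in sorted dKO (log2 fold change 2.34, SE 0.79, DESeq2 adjusted p of 0.0291). Of the genes low in WT replicate 2, the retinoic acid receptor Rarg (log2 fold change 2.11, edgeR FDR of 0.513), Zbtb16 (1.97, FDR of 0.527) and Upp1 (3.08, FDR of 0.461) had both dKO libraries above both WT libraries without passing the test. Sox3, a transcription factor of progenitors, had 193 and 140 counts in sorted WT and 323 and 315 in sorted dKO (1.27, FDR of 0.333). Kitl, the ligand of Kit, made by Sertoli cells, was at between 89.4 and 123 TPM in WT testis and at between 33.9 and 85.0 TPM in dKO testis. The lowest of these was dKO replicate 2, and the log2 fold change was −0.33 (SE 0.23, edgeR FDR of 0.355). In sorted cells Kitl was at 12.8 and 8.96 TPM in WT and at 16.6 and 22.4 TPM in dKO (log2 fold change 1.77, SE 0.69, edgeR FDR of 0.220, DESeq2 adjusted p of 0.0501). In whole testis 7 of the 18 were positive and 11 negative (median −0.22), with Lin28b at −0.28 (edgeR FDR of 0.271) and Nanos2 at −0.57 (FDR of 0.410). Upp1, a pyrimidine salvage enzyme, rose from 17.6, 15.2 and 11.4 TPM to 30.9, 32.2 and 34.0 TPM (log2 fold change 1.48, SE 0.17, edgeR FDR of 0.00136), and Ccnd2, a D-type cyclin, fell from 130, 113 and 96.9 TPM to 53.3, 33.8 and 46.0 TPM (log2 fold change −1.13, SE 0.15, edgeR FDR of 0.00239).

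Of 10 stem cell genes, 9 had a positive fold change in sorted cells (median log2 1.34, against 0.15 over all genes tested). With edgeR 0 were called, while DESeq2 called Ret, Bcl6b and Cd9 higher, against 7.33% of all genes it tested. For 9 of the 10, both dKO libraries lay above both WT libraries in CPM, against 36.3% of all genes tested. Bcl6b, a transcription factor downstream of GDNF signalling, had 0 counts in both sorted WT libraries and 180 and 256 in the sorted dKO libraries. Taken against 3 counts over the WT group it was at least 162-fold higher in dKO. These zeros, and the few counts of Nanos2 and Neurog3, fall in the libraries with the fewest genes detected. Ret, the GDNF receptor, was at 6.72 and 6.42 TPM in sorted WT and at 26.3 and 19.0 TPM in sorted dKO (log2 fold change 2.04, SE 0.32, DESeq2 adjusted p of 6.22e-06). Cd9, a surface tetraspanin, had 881 and 1380 counts in sorted WT and 2327 and 1905 in sorted dKO (log2 fold change 1.23, edgeR FDR of 0.0810). Other stem cell genes had both dKO libraries above both WT libraries and a fitted group difference of 2-fold or more, though single libraries lay closer. These were Gfra1, the GDNF co-receptor (498 counts in WT replicate 2 against 845 and 739 in dKO, log2 fold change 1.36, edgeR FDR of 0.152), Bmi1 (1.32, FDR of 0.170), Id4 (1.71, FDR of 0.520) and Eomes (40 and 0 counts in WT against 46 and 40 in dKO, 1.43, FDR of 0.786), and of these Gfra1 and Eomes overlapped in TPM. In whole testis 9 of the 10 were positive as well (median 0.37), and none was called. Among 16704 genes, those whose levels over the 10 libraries followed the members' mean most closely were Wasf1 (r = 0.953), Lpar3 (0.952), Eif4e (0.946), 1110059E24Rik (0.940) and Igsf3 (0.933). Single members ran from 0.0906 for Dmrtb1 to 0.885 for Sall4 on the same measure, a description over libraries of different preparation.

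The histone lists show which of the 10 promoters carried a called peak. A promoter was marked when a peak summit lay within 3000 bp of an annotated transcript start, and the share of all 21951 protein-coding genes marked in the same list is given beside each count. H3K4me3 marks active and poised starts, H3K27ac active starts and enhancers, and methylated H4R3, H3R2 and H3R8 are arginine marks, with the asymmetric form (me2a) made by enzymes such as Prmt1. The lists were called separately per sample and the depth behind them is unknown, so presence was counted and levels were not compared.

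The sequences just upstream of the start are printed for 6 members because their promoters differed most in the marks: Foxo1, Kit and Sohlh2 were marked in the most lists, Lin28a had H3K4me3 at P14 only, Sohlh1 was marked in the fewest lists, and Nanos3 was marked away from its RefSeq start. Each is the 250 bases before the RefSeq start in GRCm38.p6, 5′ to 3′ on the gene's strand, with CpG dinucleotides in capitals.
Foxo1 (chr3:52268087-52268336, + strand): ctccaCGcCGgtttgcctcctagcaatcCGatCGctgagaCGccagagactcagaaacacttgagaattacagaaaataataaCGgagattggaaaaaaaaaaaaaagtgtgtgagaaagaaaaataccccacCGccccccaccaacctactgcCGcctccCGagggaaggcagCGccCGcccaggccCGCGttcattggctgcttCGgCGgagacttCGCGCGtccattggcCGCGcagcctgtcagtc
Kit (chr5:75574737-75574986, + strand): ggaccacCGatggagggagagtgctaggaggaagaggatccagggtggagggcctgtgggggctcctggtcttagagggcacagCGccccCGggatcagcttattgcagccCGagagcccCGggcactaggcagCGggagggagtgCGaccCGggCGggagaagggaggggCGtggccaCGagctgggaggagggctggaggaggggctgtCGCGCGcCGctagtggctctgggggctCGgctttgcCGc
Sohlh2 (chr3:55181794-55182043, + strand): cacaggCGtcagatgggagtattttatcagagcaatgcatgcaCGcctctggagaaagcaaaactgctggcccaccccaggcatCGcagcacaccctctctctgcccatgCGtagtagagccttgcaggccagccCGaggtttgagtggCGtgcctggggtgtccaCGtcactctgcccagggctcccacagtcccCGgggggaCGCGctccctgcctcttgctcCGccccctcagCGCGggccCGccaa
Lin28a (chr4:134018817-134019066, − strand): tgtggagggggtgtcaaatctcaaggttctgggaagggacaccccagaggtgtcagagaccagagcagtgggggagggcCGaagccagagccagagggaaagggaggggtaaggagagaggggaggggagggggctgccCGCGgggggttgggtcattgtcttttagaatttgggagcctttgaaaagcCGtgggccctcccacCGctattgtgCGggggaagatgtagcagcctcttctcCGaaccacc
Sohlh1 (chr2:25847249-25847498, − strand): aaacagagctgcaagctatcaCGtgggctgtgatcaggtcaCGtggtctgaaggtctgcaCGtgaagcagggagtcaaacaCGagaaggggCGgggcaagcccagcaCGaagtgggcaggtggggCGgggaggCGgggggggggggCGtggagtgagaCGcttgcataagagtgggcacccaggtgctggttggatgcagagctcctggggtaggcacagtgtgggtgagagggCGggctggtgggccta
Nanos3 (chr8:84176553-84176802, − strand): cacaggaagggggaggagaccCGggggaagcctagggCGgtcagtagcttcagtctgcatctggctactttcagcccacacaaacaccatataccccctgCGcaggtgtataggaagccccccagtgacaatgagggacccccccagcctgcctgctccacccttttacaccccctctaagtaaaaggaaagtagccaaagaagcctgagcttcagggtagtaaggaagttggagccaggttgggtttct

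Foxo1 had the densest CpGs of these windows, with an observed to expected ratio of 1.04, above that of 95.8% of all 32841 RefSeq windows of this length. Kit (0.601), Sohlh2 (0.542) and Sohlh1 (0.513) lay above the median of all windows, 0.374, and Lin28a (0.336) and Nanos3 (0.151) below it. The letters CACGTG, an E-box that helix-loop-helix factors bind, occurred 3 times upstream of Sohlh1 and in no other of the 8 member windows, against 6.02% of all windows. The broader CANNTG, which contains it, was in 6 of 8 member windows and in 66.2% of all windows. GGGCGG was in 5 of 8 (32.7% of all), CCAAT in 3 of 8 (33.9%), with 3 copies upstream of Foxo1, AGGTCA in 1 of 8 (14.0%) and TATAAA in 0 of 8 (12.4%). All were searched on both strands, and a match describes the letters only. Sall4 and Dmrt1 have no window among those used here.

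H3K4me3 was found at 7 and 8 of the 10 promoters in the P7 lists, against 62.7 and 61.8% of all genes, and at 8 and 8 in the P14 lists, against 64.4 and 65.7%. Among genes with a mean of at least 1 TPM in sorted WT the shares were higher, between 92.0 and 94.9%. Foxo1 carried the widest peak of the 10, between 2561 and 2808 bp, at the 79.9th to 88.0th percentile of its list by p. Dmrt1 (63.8th to 82.0th) and Kit (56.5th to 81.7th) ranked next. Sohlh2 ranked at 32.6 and 41.8 at P7 and at 68.6 and 77.0 at P14. Dmrtb1, which acts later, ranked at 2.96 and 9.23 at P7 and at 67.2 and 65.3 at P14, with peaks of 330 and 750 bp at P7 and of 987 and 980 bp at P14. The P7 lists held 19162 and 18465 peaks and the P14 lists 25627 and 26635, and a longer list lifts the percentile of the same peak, so percentiles order peaks within a list. With each list taken to its best 18465 peaks, a choice made after seeing the data, Dmrtb1 was outside P7 list 1, at 9.23 in P7 list 2 and at 54.4 in P14 list 1, while in P14 list 2 it was peak 9231 from the best, and Sohlh2 was at 30.0 and 41.8 at P7 and at 56.4 and 66.9 at P14.

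Lin28a had no promoter H3K4me3 peak in either P7 list, where the nearest summits were 8685 and 6618 bp away, and peaks 8 and 114 bp from a start in the P14 lists. Of 5348 protein-coding genes at least as abundant as Lin28a in sorted WT cells, 84 likewise had none in either P7 list. Neurog3 had a single weak peak, at the 2.04th percentile of 1 P7 list. Sohlh1 had none in any of the 4 lists, its nearest summits being between 9814 and 16792 bp away. Of 1214 protein-coding genes at least as abundant as Sohlh1 (mean 150 TPM in sorted WT), 3 lacked the mark in all 4 lists, namely Sohlh1, Gm11808 and Gm2000, a group chosen after the values were seen. The Nanos3 peaks lay between 1024 and 1352 bp from the outer start at 84185217, next to which the annotation also places Mir181c and Mir181d. Of the 15 lists that marked Nanos3, 14 did so nearest to this start and 1 nearest to the inner start at 84176552, which RefSeq uses and which is 8665 bp away. The CUT&Tag cells were strained against Sertoli cells but not sorted, and the paper reports that germ cells made up most of the P7 filtrate. In the P7 H3K4me3 lists 7 and 7 of 8 Sertoli markers were marked as well as 5 and 6 of 7 germ cell markers, and peritubular (4 and 1 of 5) and endothelial markers (2 and 2 of 5), while 0 of 6 Leydig, 0 of 6 macrophage and 0 of 3 mast cell markers were marked, and which cells carried a given peak was not tested.

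**Figure D3:**
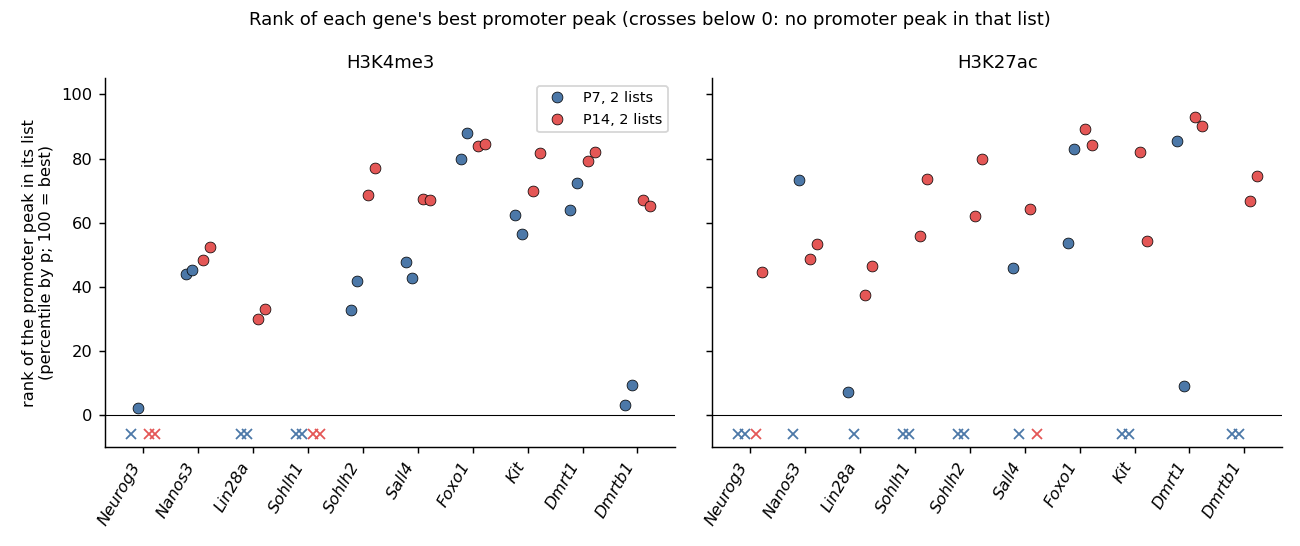
Rank of the best promoter peak of each of the 10 genes in the 2 P7 and 2 P14 lists of H3K4me3 (left) and H3K27ac (right), as a percentile by p within the list, where 100 is the best peak. Crosses under the zero line are lists with no promoter peak. The P14 H3K4me3 lists were longer than the P7 lists, which lifts percentiles. Dmrtb1 H3K4me3 ranked under 10 at P7 and over 60 at P14, and Sohlh1 had no H3K4me3 peak.

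H3K27ac was found at 4 and 3 members in the P7 lists (37.9 and 40.9% of all genes). In the P14 lists it was found at 9 and 9 (56.2 and 55.3%). Among genes at a mean of at least 1 TPM in sorted WT, shares were higher. They were 61.7 and 66.5% at P7 and 86.9 and 84.9% at P14. Foxo1 and Dmrt1 were marked in both P7 lists. Lin28a, Sall4 and Nanos3 were marked in 1 P7 list each. At P14 every member except Neurog3 was marked in list 1 and every member except Sall4 in list 2, with Dmrt1 at the 93.1st and 90.3rd percentile, and Sohlh1, which lacked H3K4me3, at 55.7 and 73.7.

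**Figure D4:**
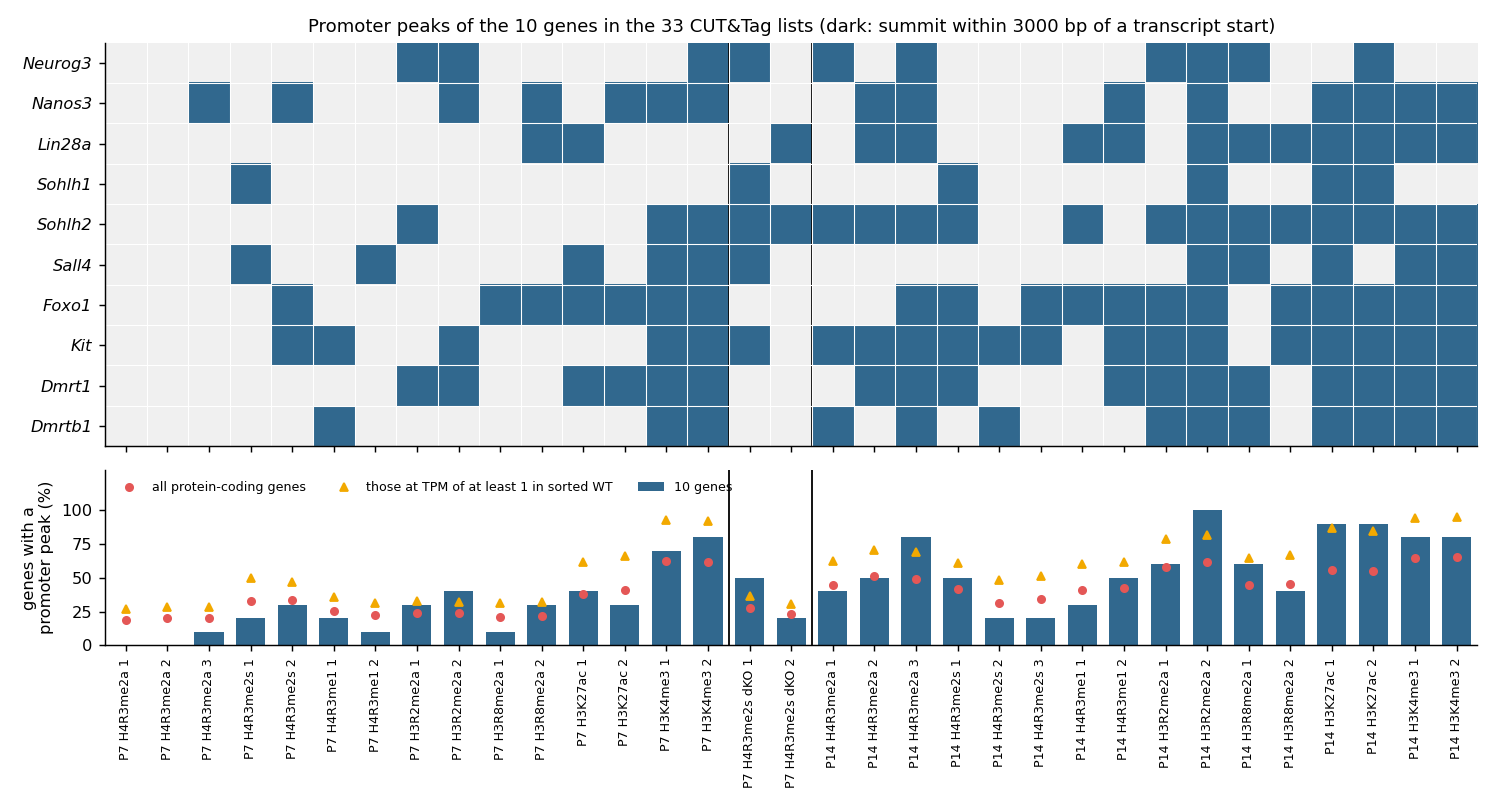
Presence of a promoter peak of each of the 10 genes in the 33 CUT&Tag lists (top, dark cells) and the percentage of genes marked in each list (bottom), with bars for the 10 genes, circles for all protein-coding genes and triangles for those with a mean of at least 1 TPM in sorted WT. The bars were low in the P7 H4R3me2a lists (0, 0 and 1 of 10) and higher in the P14 lists (4, 5 and 8 of 10).

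Of the arginine marks, H4R3me2a, H4R3me1, H3R2me2a and H3R8me2a marked few members at P7, and both the members and all genes were marked more often in the P14 lists, while 2 of the 3 P14 lists of H4R3me2s marked no more members than the P7 lists. H4R3me2a marked 0, 0 and 1 member in the P7 lists (19.0, 20.3 and 20.2% of all genes) and 4, 5 and 8 members in the P14 lists (44.9, 51.1 and 49.3%), a mean of 0.333 ± 0.577 against 5.67 ± 2.08 (SD, n = 3 lists each). The only member marked at P7 was Nanos3, in list 3. H4R3me1 marked 2 and 1 members at P7 (25.3 and 22.3%) and 3 and 5 at P14 (40.9 and 42.7%). H3R2me2a marked 3 and 4 at P7 (24.3 and 24.1%) and 6 and 10 at P14 (58.3 and 61.5%). H3R8me2a marked 1 and 3 at P7 (21.1 and 21.5%) and 6 and 4 at P14 (45.0 and 45.4%). The second P14 H3R2me2a list was the only one of the 33 to mark all 10. H4R3me2s marked 2 and 3 members in the P7 WT lists (33.1 and 33.7%) and 5, 2 and 2 in the P14 lists (41.9, 31.6 and 34.2%). The peak names inside those P14 lists carry the age 17 where the labels give 14, so their age is uncertain. The P14 lists were mostly longer than the P7 lists. With every list taken to its best 15361 peaks, H4R3me2a marked 0, 0 and 1 members at P7 (17.5, 17.6 and 18.0% of all genes). At P14 it then marked 1, 1 and 5 members (28.5, 31.6 and 32.2%). Over the 5 arginine marks the mean was 1.45 members per list at P7 and 3.0 at P14, in place of 1.82 and 5.0. The shares of all genes in these WT lists were between 15.2 and 27.7% at P7 and between 27.5 and 36.5% at P14. No test was run within a mark, because 2 or 3 lists a side cannot reach an exact p under 0.05. The means over the 5 marks were not tested either.

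Over the 5 arginine marks in WT, Kit was marked in 3 of 11 P7 lists and 10 of 12 P14 lists, and Sohlh2 in 1 and 9. For Kit the best peak lay nearest to an internal start, between 35587 and 70710 bp from the RefSeq start, in 1 of these P7 lists and 4 of these P14 lists, among them H4R3me2a lists 2 and 3 and H4R3me2s lists 1 and 3. Foxo1 (3 and 8), Lin28a (1 and 7), Dmrt1 (2 and 7), Dmrtb1 (1 and 6) and Neurog3 (2 and 5) also had more marked lists at P14. Nanos3 (4 and 4), Sall4 (2 and 2) and Sohlh1 (1 and 2) hardly differed between the ages. Most of these peaks were weak. None of the 20 member peaks of the P7 WT arginine lists had a q of at most 0.01. At P14 the best were at Kit in H3R2me2a list 2, with a fold enrichment of 4.09 over local background and a −log10 q of 6.08, and at Dmrt1 in H3R8me2a list 1, with a fold enrichment of 5.10 and a −log10 q of 4.54.

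H4R3me2s was also profiled in dKO cells at P7. It marked 5 and 2 members in the dKO lists, against 27.5 and 23.1% of all genes, next to 2 and 3 in the WT lists. Sohlh2 was the only member marked in both dKO lists, 325 and 141 bp from its start, and it was marked in neither WT list. Of all protein-coding genes 418 (1.90%) had this pattern and 1215 (5.54%) the opposite one, in lists of 19981 and 36145 peaks in WT and 33941 and 28221 in dKO, and no test was run. Sall4, Kit and Sohlh1 were marked in 1 list of each genotype, Neurog3 and Lin28a in 1 dKO list only, and Nanos3 and Foxo1 in 1 WT list only. No dKO peak on a member had a q of at most 0.01, and the highest −log10 q was 1.49, at Sall4.

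Outside the promoter windows the members' gene bodies held a median of 0.219 summits per 10 kb over the 33 lists, against 0.0957 for all protein-coding genes, and the members were higher in 28 of the 33 lists. This rests on long genes. Foxo1 held 80 summits in 29 lists, Dmrt1 55 in 25 lists and Kit 28 in 17 lists, and these genes made up 29.9, 34.9 and 20.0% of the length counted. Sohlh2 held 13, Nanos3 6, Lin28a and Sall4 1 each, and Neurog3, Sohlh1 and Dmrtb1, which have hardly any body outside the windows, 0.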

How the data were processed

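RNA was measured at P7 in 10 libraries, and 7 histone marks by CUT&Tag in 33 samples at P7 and P14. Per the labels and the study's methods, the authors trimmed reads with fastp 0.23.2, aligned them with STAR to mm10 and ran RSEM. The deposited tables give expected counts per gene, not normalized, and TPM, scaled by the authors to transcript length and library total. The deposited FPKM were not used. The authors called peaks with MACS2 2.1.0 on each sample alone, and the deposited lists give a fold enrichment over local background and −log10 p and q values. Peak names carry a threshold of p 0.005, or q 0.05 for H3K4me3.

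Symbols came from GENCODE vM21 (55141 of 55401 identifiers matched). Expected counts were rounded and tested with edgeR 4.0.16 (quasi-likelihood, TMM, filterByExpr with a minimum count of 10 and a total of 15, Benjamini-Hochberg adjustment over all genes tested), within each assay, in R 4.3.3. A call needed an FDR below 0.05 and a 2-fold change, and the difference between assays an FDR below 0.05. The scripts were tested on simulated data. DESeq2 1.42.0, limma 3.58.1 (voom), RLE size factors, no filter, the replicate number as a block and leaving out each library were the alternatives for RNA. For promoters they were a 1000 bp window, a q of at most 0.01, overlap in place of the summit, equal list length, the outer start only, and leaving out each list. The share among expressed genes, the H3K4me3 ranks at equal list length and the H4R3me2s genotype patterns were added after seeing the data. Intervals of fold changes use the quasi-likelihood degrees of freedom. Log2 CPM for correlations used a prior count of 2, and likeness used log2(TPM + 1) and genes with a mean TPM of at least 1. Upstream windows came from RefSeq (GRCm38.p6), where 8 of the 10 members matched.

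Named were Prmt1, the members, the 5 genes most like them, and, of the 2 other lists, genes that were called, that differed without overlap by a log2 fold change of at least 1, or that are partners of a member. The members and lists were chosen with earlier results of these data known. The germ cell marker Gcna had no identifier and was left out of its list. The libraries held between 12396317 and 18547078 expected counts, which sets the precision of the RNA values. Depth behind the peak lists was not given in the sources used here.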

Additional observations from a re-analysis of the deposited data

Results flagged for a closer look

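In the edgeR test of the difference in genotype effect between sorted spermatogonia and whole testis, 3 of the 10 genes passed. Of all 19608 genes tested, 3722 (19.0%) did so. Neurog3 differed by 6.11 on the log2 scale, with a higher level in 2 of 2 sorted dKO libraries and CPM of 4.71 ± 0.08 in dKO testis against 4.92 ± 0.04 in WT testis (SD, n = 3 each). Its size rests on the sorted WT pair, at 11.34 without WT replicate 1 and 5.14 without WT replicate 2. Sall4 differed by 1.46 (between 1.22 and 1.5 without each library in turn) and was higher in 2 of 2 sorted dKO libraries. Dmrt1 differed by 0.59, the smallest of the 3, and lost the call under RLE size factors (0.47, FDR of 0.0632). The edgeR FDR of the differences was 0.0108, 0.00326 and 0.0407. When limma-voom gave each assay its own spread, the FDR was 0.0130 for Neurog3, 0.0602 for Sall4 and 0.167 for Dmrt1. Without each library in turn the FDR of Sall4 ran from 0.00116 to 0.0146 and that of Neurog3 from 2.23e-06 to 0.0404, while Dmrt1 passed 0.05 only without sorted WT replicate 1 (FDR of 0.0137) or sorted dKO replicate 2 (FDR of 0.0463).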

How the results depend on the processing

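The calls in sorted cells depended on the tool and on the WT pair. Members called higher numbered 0 with edgeR, 3 with DESeq2, 1 with limma-voom and between 0 and 6 when each library was left out (6 without WT replicate 1, 3 without WT replicate 2), and none was called lower in any of these. Over all genes in sorted cells, the calls higher were 0, then 1238 with DESeq2, 1546 with limma-voom and 0 to 5290 without 1 library. The calls lower were 0, then 664, 150 and 0 to 2146. The members' median log2 fold change ran from 0.64 to 1.24. Leaving a single WT library assumes that it varies like the dKO pair. In whole testis no member was called at 2-fold in any of these fits. Under 2-fold, Lin28a passed an FDR of 0.05 with DESeq2 (0.0440), without a filter (0.0357) and without dKO replicate 2 (1.57e-04), Dmrtb1 without a filter (0.0379) and without dKO replicate 2 (log2 fold change −0.74, FDR of 3.3e-04), and Kit without a filter (0.0184) and without dKO replicate 1 (−0.81, FDR of 0.0222). Genes called higher in testis numbered 1379 with DESeq2 and 1777 without a filter. Signs turned for values near 0: Nanos3 in testis (−0.13 without dKO replicate 2, up to 0.38 without another library), Sohlh1 in testis (−0.02 without WT replicate 1, −0.03 without dKO replicate 2, up to 0.10), Foxo1 in testis (0.03 without WT replicate 2, 0.09 without dKO replicate 2, down to −0.12) and Dmrtb1 in sorted cells (−0.04 with DESeq2 and with RLE, −0.24 without WT replicate 1, −0.13 without dKO replicate 2, up to 0.34). The difference between assays passed for 1 member and 1554 genes with weighted limma-voom, and for 2 to 7 members and 2590 to 8886 genes without 1 library (7 members without sorted WT replicate 1, 5 without sorted WT replicate 2). The cause of these changes was not tested.

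With the replicate number as a block, testis calls were 691 higher and 259 lower, no member was called in either assay, and the FDR of Sall4 in sorted cells was 0.382. The deviations of same-numbered samples from their genotype mean had r between −0.22 and 0.08 in testis and 0.02 in both sorted pairs. In sorted cells both pairs give the same r by construction. So few samples per genotype cannot show whether the numbers pair the samples.

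Promoter counts fell under stricter peaks. At a q of at most 0.01 the P7 WT lists of the 5 arginine marks marked between 1.90 and 7.76% of all genes. At P14 this was between 6.82 and 41.2%, with 17.1, 24.4 and 22.7% for H4R3me2a. For H3K27ac it was 14.9 and 20.1% at P7 and 46.4 and 45.1% at P14. At a q of at most 0.01 the mean number of members per list was 1.0 for P14 H4R3me2a, 0 for P7 H4R3me2s in WT and in dKO, 0.667 for P14 H4R3me2s, 1.0 and 6.0 for H3K27ac at P7 and P14, and 0 and 1.67 over the 5 arginine marks. With lists cut to 15361 peaks it was 1.45 and 3.0 over the 5 arginine marks, 2.33 for P14 H4R3me2a, 1.5 for P7 H4R3me2s in WT, 2.50 and 5.50 for H3K27ac, and 6.00 and 7.00 for H3K4me3. A 1000 bp window gave 3.67 for P14 H4R3me2a, 1.67 for P14 H4R3me2s, 1.09 and 3.92 over the 5 arginine marks, 8.0 for P14 H3K27ac and 6.50 and 7.00 for H3K4me3, and the outer start alone gave 8.50 for P14 H3K27ac. The cut WT lists of the arginine marks marked between 15.2 and 27.7% of all genes at P7 and between 27.5 and 36.5% at P14. With the 1000 bp window these shares were between 13.5 and 26.7% and between 26.9 and 54.6%. Means without each list in turn stayed between 1.60 and 2.0 at P7 and between 4.55 and 5.27 at P14 over the arginine marks.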
